A study of Oryza sativa Indica Group with 23 samples.

Results

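On the rice arrays, 270 of 57194 rice probe sets (0.472%) had a mean in IR29 roots at least 2 log2 units, or 4-fold, above the mean in Pokkali roots. The rule took the mean of 4 IR29 arrays, with control replicate 1 left out, minus the mean of 6 Pokkali arrays. The probe sets were thus chosen by their measured levels in IR29 and Pokkali, and the difference between these 2 is described here with no test. FL478 and IR63731 did not enter the rule, and neither did the response of any line to salt, except that the 4 IR29 arrays of the rule were 1 control array and 3 salt arrays.

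IR29 is a salt-sensitive indica rice variety, Pokkali a salt-tolerant landrace, FL478 a tolerant recombinant inbred line from the cross of IR29 with Pokkali, and IR63731 a further tolerant line whose pedigree the sources used here do not give. Plants grew in sand tanks with nutrient solution. Salt plants received sodium chloride and calcium chloride from day 22, in 2 steps over 3 days, up to 7.4 dS per m, and control plants received none. Roots of all plants were taken on day 30. The 23 arrays fell into 8 groups of 3 replicates, labelled biological, save that IR29 control had 2. The labels do not say whether a replicate was 1 plant or a pool. The median log2 value of an array was 4.31 to 4.41. Of the probe sets for root marker genes, 8 of 8 had a median over that of the median probe set (4.38). The same was true of 5 of 11 for leaf photosynthesis genes, 1 of 4 for anther genes and 2 of 7 for seed storage genes. Earlier results of these data placed 3 arrays between 2 genotypes. These were FL478 control replicate 3, FL478 salt replicate 2 and IR29 control replicate 1. The labels give no reason for it, and it was not tested here. They are called the 3 arrays between genotypes below and were left out of the means and fits. Values with all 23 arrays are given for counts that passed and for some probe sets only, and other values may differ too. Precision is limited by the number of arrays.

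A recombinant inbred line is fixed by repeated selfing, so at most loci it carries the allele of 1 parent or the other. A transcript whose level is set by its own locus is then at the level of that parent, while a transcript set by many loci can lie between or outside the parents. A probe set on an expression array reads hybridisation to short probes, so a sequence difference between 2 genotypes within the probes changes the reading as a difference in transcript level does. These array values cannot tell the 2 apart. In whole roots, fewer cells of a type and less RNA per cell cannot be told apart either.

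The 270 probe sets had a median level of 7.62 in IR29 and 4.23 in Pokkali on the log2 scale. The difference had a median of 2.74 and reached 7.38, and it was 3 or more in 115 probe sets, 4 or more in 56 and 6 or more in 9. In Pokkali 142 of the 270 (52.6%) had a mean under that of the median probe set, and in IR29 none had. The arrays of the parents did not overlap in 261, which follows largely from the rule, since it chose the probe sets by these same arrays. The 3 probe sets just inside the rule differed by 2.00 (Os.47703.1.S1_at), 2.01 (Os.27288.2.S1_at, gene LOC4324011) and 2.01 (Os.26349.1.S1_at, gene LOC4336466). The 3 just outside differed by 1.99 (OsAffx.24102.2.S1_at), 1.98 (Os.46330.1.S1_at, gene LOC9272124) and 1.97 (Os.27440.1.S1_at). With IR29 control replicate 1 put back, 246 of the 270 still differed by 2 or more and 24 did not, and the median difference was 2.55.

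The array annotation gave 1 gene for 138 of the 270 (51.1%, against 39.2% of all rice probe sets), several for 1 and none for 131. These 138 probe sets read 131 genes, of which 12 (9.16%, against 13.8% of all genes on the array) had a name besides a locus identifier. Genes known by a locus identifier alone are named below after their values were seen, and no role is given to them. The function families searched by name found 1 of the 131 genes, PIP2-1, because few rice genes carry a descriptive symbol in the tables used, so the families could not be counted. Probe sets with the suffix _s_at, whose probes can read several transcripts, made up 8.52% of the 270 against 4.92% of all, and those with _x_at, whose probes can cross-hybridise, 9.26% against 12.5%.

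The 12 named genes covered transport, signalling, metabolism and cell structure. In FL478, 4 of them lay near IR29, at more than 0.75 of the way from Pokkali to IR29, and 5 lay at 0.25 or less. In IR63731 the counts were 4 and 8. This position, the line's mean minus that of Pokkali divided by the difference of the parents, is 0 at the level of Pokkali and 1 at the level of IR29.

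Among the transport genes, HMA2 encodes a heavy metal ATPase that moves zinc and cadmium toward the xylem in rice roots. It read 8.23 in the IR29 control array of the rule and 7.92, 7.56 and 7.95 in the IR29 salt arrays, against 3.87 to 5.21 (median 4.54) in Pokkali. Both lines stood near IR29, with FL478 at 8.27 and 7.72 in control and 7.11 and 7.34 in salt, and IR63731 between 7.39 and 8.32 (median 7.84), so that no array of either line overlapped Pokkali. PIP2-1, a plasma membrane aquaporin gene, had 1 such probe set (Os.11330.1.S2_at), which stood at 8.15 in IR29, 5.92 in Pokkali, 7.29 in FL478 and 7.77 in IR63731. Its other 2 probe sets, at 12.7 to 12.9 in every genotype, differed between the parents by -0.08 and -0.09. OsVDAC1, the gene of a channel of the outer mitochondrial membrane, read 8.83 in IR29 at the probe set Os.39720.1.A1_x_at and 5.47, 5.48 and 5.41 in Pokkali, FL478 and IR63731. Its other 2 probe sets differed by 0.33 and -0.30 between the parents.

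Among the signalling genes, OsPP2C12 encodes a protein phosphatase 2C, a family that removes phosphate from proteins and acts in plant stress signalling. It read 12.32 in the IR29 control array and 11.99, 11.93 and 11.89 under salt, and in FL478 11.95 and 12.18 in control and 11.93 and 11.72 under salt. In IR63731 its arrays ran from 7.70 to 8.16 (median 8.04) and in Pokkali from 7.57 to 8.33 (median 8.19). The 4 genotypes thus fell into 2 pairs about 4 log2 units apart, with FL478 beside IR29 and IR63731 beside Pokkali. CIPK10 encodes a kinase that binds calcineurin B-like calcium sensors. All 4 of its probe sets met the rule, with parental differences of 2.53 to 2.78, and both lines stood nearer Pokkali, FL478 at 0.26 to 0.34 and IR63731 at 0.18 to 0.30.

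CIPK10 and LIR1, a gene of a light-regulated chloroplast protein, also varied widely among replicates. LIR1 read 8.86 in the IR29 control array of the rule and 9.07, 7.55 and 5.17 in the salt arrays of replicates 1, 2 and 3. In Pokkali it read 4.34, 6.43 and 4.06 in control and 5.97, 6.84 and 4.09 in salt, and in IR63731 4.56, 6.92 and 4.03 in control and 5.65, 7.57 and 4.16 in salt. In each group of Pokkali and IR63731 replicate 2 was highest and replicate 3 lowest, and the arrays of IR29 and Pokkali overlapped. The IR29 control array that was left out read 4.16, and with it the parental difference of LIR1 was 1.68, under the rule, so its place among the 270 rests on that array. It was the only 1 of the 15 named probe sets of which this was true. CIPK10 (Os.8095.1.S2_at) likewise read 8.67 in the array left out, against 11.16 in the other IR29 control array, and its difference with that array was 2.34.

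Among genes of metabolism and cell structure, OsCASPL1D1, of the Casparian strip membrane protein-like family, had the largest parental difference of the 12 at 5.75. It read 12.48 in the IR29 control array and 12.80, 12.54 and 12.71 in the IR29 salt arrays, and 6.62 to 7.36 (median 6.66) in Pokkali. In FL478 it read 7.20 and 8.15 in control and 7.24 and 7.47 in salt, and in IR63731 6.72 to 8.17 (median 7.29), so both lines overlapped Pokkali and lay more than 4 log2 units below every IR29 array of the rule. OsICS, the gene of isochorismate synthase, stood at 5.95 in IR29 and between 3.18 and 3.42 in the other 3 genotypes. ATG8D, of the ATG8 family of autophagy proteins, stood at 7.84 in IR29, 5.70 in Pokkali, 7.82 in FL478 and 8.06 in IR63731. CBP1 stood at 7.76, 4.77, 7.17 and 7.66 in the same order, and CCS1 at 5.91, 3.12, 4.81 and 3.20.

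GLP2, a germin-like protein gene, was the only 1 of the 270 probe sets at which FL478 lay outside both parents by 1 log2 unit or more. At Os.2320.1.S1_at it read 11.44 in the IR29 control array and 10.93, 9.52 and 11.62 in the IR29 salt arrays, and 8.06 to 9.42 (median 8.59) in Pokkali. FL478 read 6.26 and 5.26 in control and 5.06 and 4.95 in salt, and IR63731 4.51 to 6.34 (median 5.28), so both lines lay below every array of either parent. A second probe set of the gene, Os.2321.1.S1_at, just missed the rule, with 9.18 in IR29 and 7.25 in Pokkali, and there FL478 and IR63731 stood at the level of IR29 (9.15 and 9.16). The 2 probe sets of GLP2 therefore put the lines on opposite sides.

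**Figure D1:**
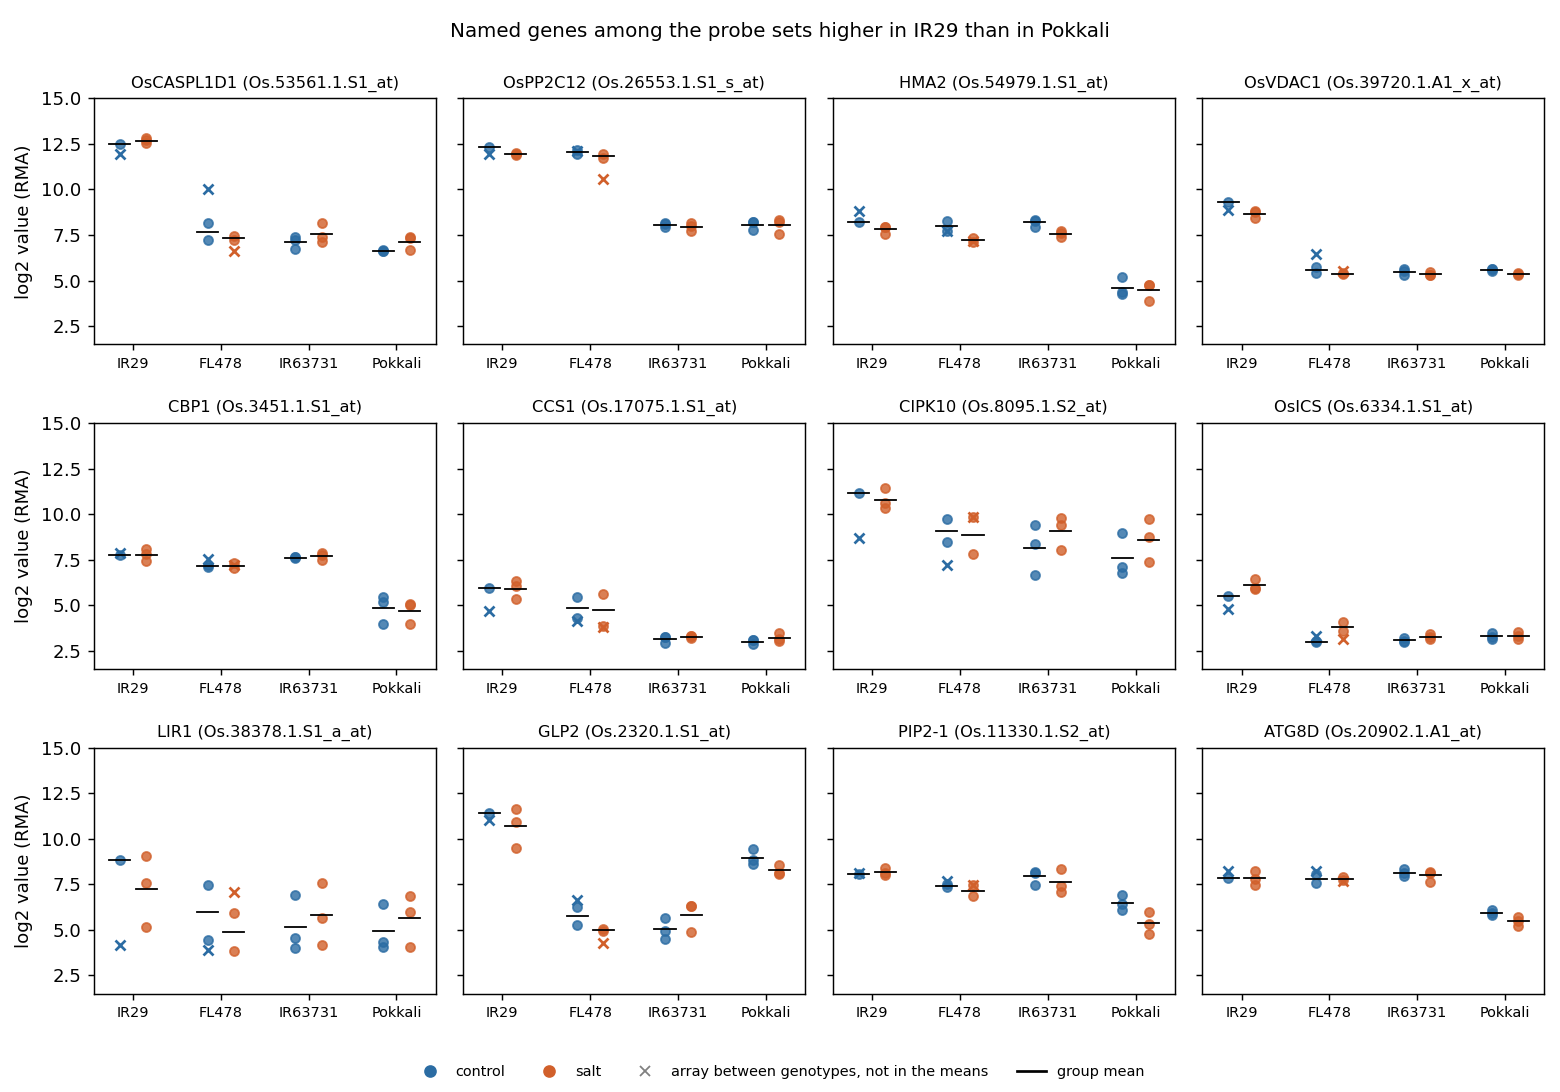
Level (log2, RMA) of the 12 named genes, 1 probe set each, by genotype. Points are arrays, blue for control and orange for salt, black bars are group means, and crosses are the 3 arrays between genotypes, which are not in the means. FL478 and IR63731 lie beside IR29 for HMA2 and ATG8D, beside Pokkali for OsCASPL1D1, OsVDAC1 and OsICS, below both parents for GLP2, and apart from each other for OsPP2C12.

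Over all 270 probe sets, FL478 was nearer IR29 at 143 (53.0%) and nearer Pokkali at 127. Within each class it lay close to that parent, with a median position of 0.883 on the IR29 side and 0.0313 on the Pokkali side. IR63731 was nearer IR29 at 129 (47.8%) and nearer Pokkali at 141, with median positions of 0.945 and 0.0162. Among the 290 probe sets higher by the same margin in Pokkali, FL478 was on the IR29 side at 158 (54.5%) and IR63731 at 125 (43.1%).

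Most probe sets thus lay at the level of 1 parent, and fewer lay between. FL478 had 102 between -0.25 and 0.25, 104 between 0.75 and 1.25, and 59 between 0.25 and 0.75. IR63731 had 111, 97 and 52 in the same ranges. The probe sets between the parents were less steady: the median standard deviation over the FL478 arrays was 0.694 for those 59 and 0.252 for the rest, and over the IR63731 arrays 0.537 for the 52 and 0.207 for the rest. Among the 56 probe sets with a parental difference of 4 or more, 4 lay between 0.25 and 0.75 in FL478 and 8 in IR63731.

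**Figure D2:**
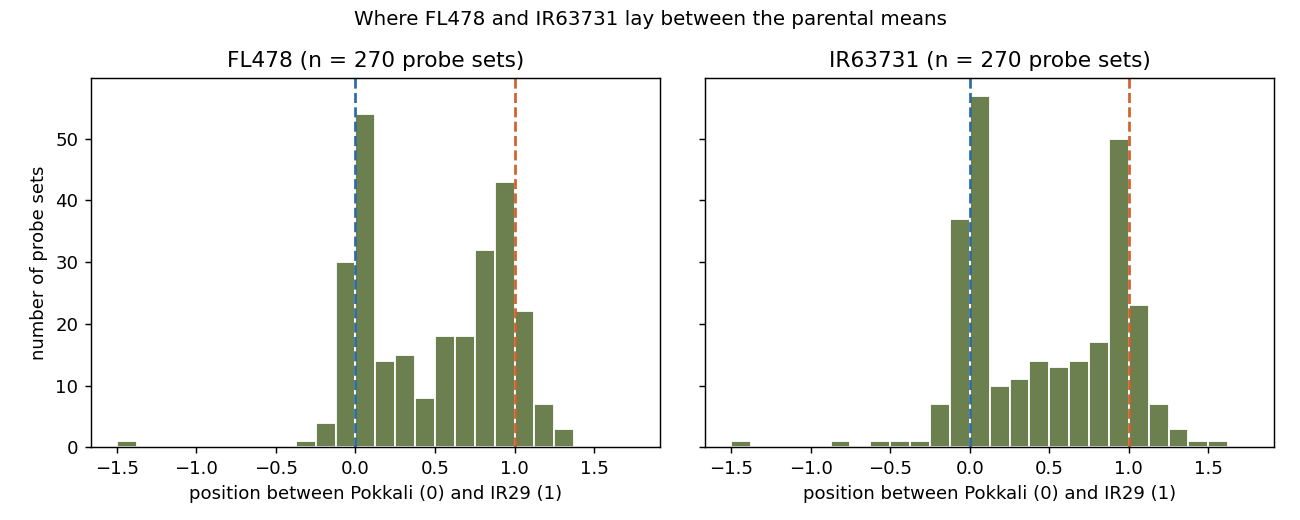
Number of probe sets, of 270, by the position of FL478 (left) and IR63731 (right) between the mean of Pokkali (0, blue dashes) and that of IR29 (1, orange dashes). Both lines have 1 peak at each parent, with 59 probe sets of FL478 and 52 of IR63731 between 0.25 and 0.75.

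IR63731 lay outside both parents by 1 log2 unit or more at 7 probe sets, 3 above IR29 and 4 below Pokkali. Above IR29 were LOC4351029, at 9.28 against 8.17 in IR29, and the 2 probe sets OsAffx.20742.2.S1_x_at and OsAffx.20742.3.S1_x_at, at 7.24 and 6.97 against 5.52 and 5.72. Below Pokkali were GLP2, LOC4342234, at 3.35 against 4.55 in Pokkali, LOC4325750, at 3.87 against 5.51, and Os.51437.1.S1_at, at 4.14 against 6.35.

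At most of the 10 probe sets with the largest parental differences both lines stood near the level of IR29. OsAffx.30449.1.S1_at stood at 11.61 in IR29 and 4.24 in Pokkali, with FL478 at 12.30 and IR63731 at 12.01. LOC4336164 stood at 10.24 and 3.70, with FL478 at 10.40 and IR63731 at 10.13. LOC4337923 had the same order, at 9.37 and 3.18, with 9.10 in FL478 and 9.21 in IR63731. The lines parted at LOC4344823, described below, and at LOC4334201. At Os.46616.1.S1_at the latter gene read 9.97 in IR29, 3.73 in Pokkali, 3.74 in FL478 and 6.17 in IR63731. A second probe set of LOC4334201, Os.11548.1.S1_at, read 8.21, 8.59, 7.74 and 8.24 in the same order. OsAffx.7586.1.S1_at put both lines at the Pokkali level, with 10.66 in IR29, 4.51 in Pokkali and 4.53 in either line.

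FL478 and IR63731 stood on the same side at 200 probe sets (74.1%). Both were on the IR29 side at 101 and both on the Pokkali side at 99. FL478 alone was on the IR29 side at 42 and IR63731 alone at 28. The 3 arrays between genotypes moved with these classes. FL478 salt replicate 2 had a median position of 0.376 at the 42 and 0.759 at the 28, and FL478 control replicate 3 had 0.764 and 0.360, where the 4 other FL478 arrays ran from 0.781 to 0.964 and from 0.0299 to 0.106. Those 4 arrays set the classes, so their nearness to the ends was partly built in, and an array left out tends to lie further in. The comparison therefore does not by itself show that the arrays left out lay between genotypes. IR29 control replicate 1 had a median position of 0.965 where both lines were on the IR29 side and 0.643 where both were on the Pokkali side.

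The difference between FL478 and IR63731 was independent of the rule and was tested, as the mean of the control and the salt difference. It passed at 87 of the 270 probe sets (32.2%), against 4.64% of all rice probe sets. FL478 was higher at 51 (18.9%, against 2.41% of all) and lower at 36 (13.3%, against 2.23%). Of the 290 probe sets higher in Pokkali, 85 (29.3%) passed, so the share was not particular to those higher in IR29. With all 23 arrays 82 passed, 81 of them the same. Of the 70 probe sets where the lines stood on different sides 60 passed, as did 27 where they stood on the same side, and 54 of the 87 differed by more than 4-fold. Sides and test use the same arrays of the lines, so a pass on different sides is largely built in.

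Of the 12 named genes, OsPP2C12 and CCS1 passed, both higher in FL478. OsPP2C12, at its probe set Os.26553.1.S1_s_at, was higher by 3.94 (SE 0.14, 15.4-fold, limma adjusted p = 5.74e-12), with no overlap between the arrays of the lines. CCS1 was higher by 1.61 (SE 0.28, adjusted p = 0.0017). With all 23 arrays the differences were 3.74 and 1.32. CCS1 read 5.45 and 4.28 in FL478 control and 5.61 and 3.89 in FL478 salt, against 2.94 to 3.30 (median 3.25) in IR63731. For GLP2, at which both lines lay below the parents, the lines did not pass (adjusted p = 0.978).

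The largest difference upward in FL478 was at LOC4344823, with 7.81 and 8.15 in FL478 control, 8.14 and 8.55 in FL478 salt and 2.87 to 3.53 (median 3.34) in IR63731. That was a difference of 4.87 (SE 0.12, 29.3-fold, adjusted p = 6.89e-14), and IR29 stood at 9.91 and Pokkali at 3.22. It was followed by LOC4326809 at 4.65 (SE 0.15) and OsAffx.2070.2.S1_at at 4.51 (SE 0.23). The largest downward were Os.15614.1.S1_at at -4.87 (SE 0.27, 29.3-fold, adjusted p = 2.77e-09), Os.15351.1.S1_at at -4.61 (SE 0.43) and Os.18126.1.S1_at at -4.27 (SE 0.24). Os.15614.1.S1_at read 3.85 and 3.49 in FL478 control, 2.65 and 3.30 in FL478 salt and 7.21 to 9.35 in IR63731, and so did not overlap. Its array left out of FL478 salt read 6.39, between the lines. With all 23 arrays the 3 largest downward differences were smaller, at -3.98, -3.72 and -3.21 in the order given. The largest downward with a gene was LOC4348157 at -3.93 (SE 0.20, 15.3-fold, adjusted p = 6.23e-10), where IR63731 stood at 8.18, above the 7.27 of IR29, and FL478 at 4.25 beside the level of Pokkali (SD 0.37 over its 6 arrays).

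**Figure D3:**
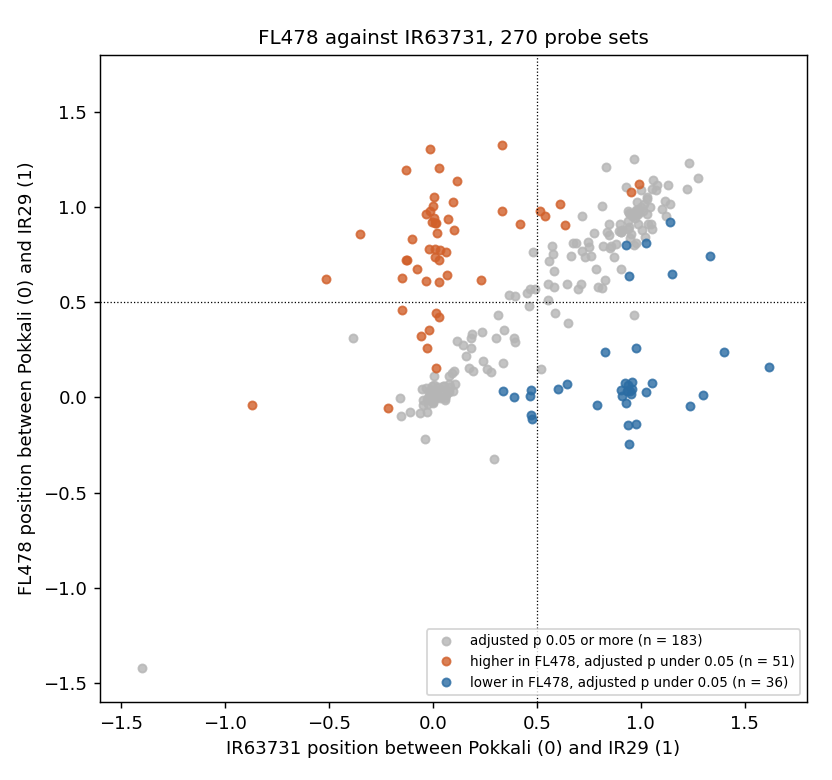
Position of FL478 against that of IR63731 between the means of Pokkali (0) and IR29 (1), 1 point per probe set (270). Orange and blue points passed in FL478 against IR63731, 51 higher and 36 lower in FL478, and grey points did not, and the dotted lines mark 0.5. Points gather at the 4 corners, with most of the coloured ones at the 2 corners where the lines part, and GLP2 lies alone under -0.5 on both axes. Positions and test use the same arrays of the lines.

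The 131 genes were placed in the gene order of RefSeq assembly ASM3414082v1, and 32 had another of the 131 at most 10 genes away. Of the 25 pairs at most 10 genes apart, FL478 stood on the same side for both genes in 22 (88.0%) and IR63731 in 18 (72.0%). For 26 pairs 11 to 50 genes apart the counts were 8 (30.8%) and 13 (50%), and for the 7805 pairs on different chromosomes the shares were 50.1% and 48.9%. Pairs share genes, so no test was made.

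Runs of 3 or more of these genes, each at most 50 genes from the next, numbered 6 and held 22 genes. FL478 stood on 1 side throughout in 2 of the runs and IR63731 in 3. LOC4342224, LOC4342229, LOC4342230 and LOC4342234 each lay 1 to 7 genes from the next, and FL478 was on the IR29 side at all 4, at positions of 1.02, 0.95, 0.98 and 0.86. IR63731 ran through the same 4 genes at 0.61, 0.54, 0.33 and -0.35. At LOC4342353, LOC4342354 and LOC4342358 both lines were on the Pokkali side, with no position above 0.112. OsVDAC1 and OsICS are next to each other in the gene order, and both lines stood at the Pokkali level at both, while 4 genes on, at LOC4346856, FL478 read 8.15 beside 7.70 in IR29 and IR63731 read 4.84 beside 4.46 in Pokkali. GLP2 lay 23 genes from LOC4344829, in the run that also holds LOC4344823, and the positions of FL478 at these 3 genes were -1.42, -0.02 and 0.74.

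Of the 131 genes, 39 had more than 1 probe set on the array, with 51 further probe sets that did not meet the rule. Those 51 differed between the parents by a median of 0.20: 12 by 1 or more, 24 by 0 to 1, and 15 by less than 0, of which 2 by -1 or less. In 17 of them the IR29 mean was under that of the median probe set. At 3 of the 39 genes all probe sets met the rule, CIPK10 among them. LOC4348151 stood at 8.23 in IR29 and 3.06 in Pokkali at 1 probe set (Os.18511.1.S1_at), while its other 3 differed by -0.62, -0.72 and -0.73. LOC4337923 differed by 6.19 at 1 probe set, by 0.14 at a second and by -3.97 at the third, and FL478 and IR63731 were beside IR29 at both probe sets that differed. LOC4342234 differed at both, by 3.43 and 1.33, and IR63731 lay below Pokkali at both (3.35 against 4.55, and 5.95 against 8.61). Beside the values of a gene with a single probe set, no second reading was at hand.

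**Figure D4:**
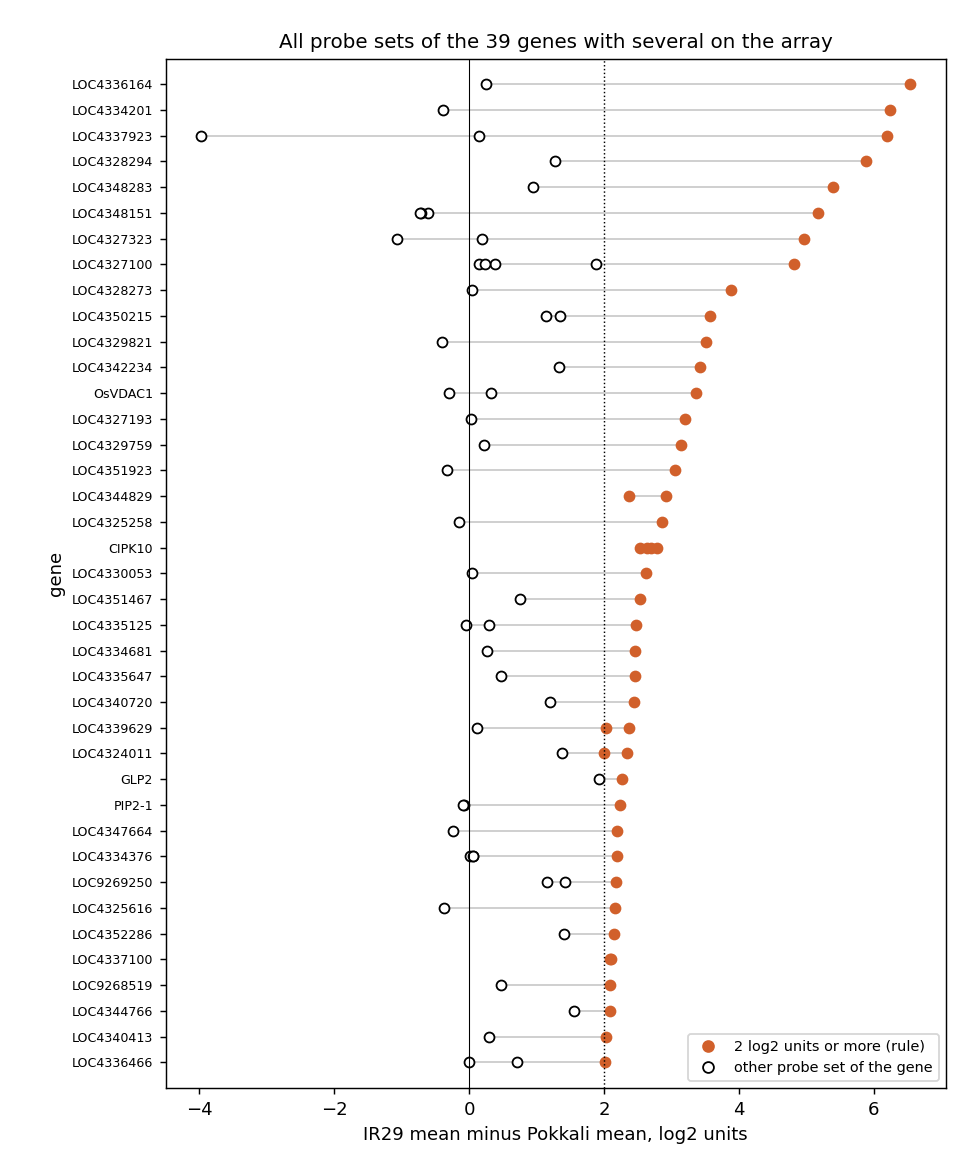
Difference of the IR29 and Pokkali means (log2 units) for every probe set of the 39 genes with more than 1, genes ordered by their largest difference. Filled points met the rule of 2 (dotted line) and open points are the 51 further probe sets of the same genes, of which 12 reach 1 or more and 15 lie below 0.

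Few of these probe sets passed for salt. In the mean of FL478, IR63731 and Pokkali 21 of 270 passed (7.78%, against 3.73% of all rice probe sets), 16 higher (against 2.21%) and 5 lower (against 1.52%). The median change was 0.08 over the 270 and -0.01 over all rice probe sets. An unadjusted limma p under 0.05 was found at 66 (24.4%, against 15.8% of all). Of the 290 probe sets higher in Pokkali 30 (10.3%) passed, so the share was not particular to those higher in IR29. With replicate number as a block 47 passed (17.4%, against 7.73% of all), and with all 23 arrays 21 (7.78%, against 5.63%), of which 13 were among the 21 above.

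The rule itself bears on these counts, since 3 of its 4 IR29 arrays were salt arrays and a probe set that rises with salt in IR29 gains in the parental difference. With control and salt weighted equally 256 of the 270 still differed by 2 or more. Of these 256, 17 passed for salt (6.64%), 12 higher and 5 lower. The other 4 that passed, all higher, differed by less than 2 so weighted, and LOC4338915 and OsAffx.2093.1.S1_at, the pair with the largest rises, were among them at 1.62 and 1.64. Of the 21 that passed without the block and without the 3 arrays between genotypes, 19 changed in 1 direction in all 3 genotypes, and 15 had all 8 salt arrays on 1 side of the control means of their genotypes. The 21 were chosen by passing on these same arrays, so such agreement is largely built in, and no share over all probe sets that passed is given. In IR29, whose salt response is a description because it has 1 control array here, 20 of the 21 had the same sign.

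LOC4338915 rose most. It read 6.88 and 7.82 in FL478 control and 9.24 and 9.42 in FL478 salt, 6.72, 7.09 and 7.54 in IR63731 control and 9.57, 9.34 and 9.27 in salt, and 6.12, 5.22 and 5.66 in Pokkali control and 8.27, 8.61 and 8.34 in salt. The rise was 2.33 (SE 0.16, 5.04-fold, adjusted p = 4.10e-06), and no salt array overlapped a control array of its genotype. It passed in FL478 (1.98, adjusted p = 0.0165), IR63731 (2.28, 0.00415) and Pokkali (2.74, 0.000287) alike, and IR29 had a change of 2.32. With all 23 arrays the change in FL478 was 1.38 (limma adjusted p = 0.0493). IR29 read 7.49 in the control array of the rule and 9.71, 9.63 and 10.10 in salt, and its gap to Pokkali was 1.83 in control and 1.41 in salt, both under the 2 of the rule.

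OsAffx.2093.1.S1_at rose by 2.19 (SE 0.23, 4.55-fold, adjusted p = 0.000104) and OsAffx.12383.1.S1_at by 1.74 (SE 0.24, 3.35-fold, adjusted p = 0.000902), with all 8 salt arrays above the control means at both. LOC4347941 rose by 0.97 (SE 0.17, adjusted p = 0.00452), LOC4341912 by 0.94 (SE 0.22, adjusted p = 0.0272) and LOC4331847 by 0.79 (SE 0.18, adjusted p = 0.0253). With 1 array left out LOC4331847 did not pass in 4 of 20 fits (highest adjusted p 0.0882). LOC4341912 did not pass with all 23 arrays (adjusted p = 0.0749, of a range over alternatives of 0.00701 to 0.0876).

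OsICS was the only named gene of the 12 to pass, with a rise of 0.36 (SE 0.10, adjusted p = 0.0478). It read 2.98 and 3.02 in FL478 control and 4.05 and 3.61 in salt, while the changes were 0.21 in IR63731 and 0.04 in Pokkali. It did not pass with all 23 arrays (adjusted p = 0.262, of a range over alternatives of 0.0277 to 0.262), nor in 12 of 20 fits with 1 array left out. The 15 named probe sets had changes of -0.57 to 0.68, and HMA2 and PIP2-1, with changes of -0.51 and -0.57, did not pass (adjusted p = 0.0972 and 0.159).

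The 5 probe sets that fell were led by Os.19895.1.S1_at, by 1.31 (SE 0.26, 2.47-fold, adjusted p = 0.0111). It read 11.45 and 10.89 in FL478 control against 9.48 and 9.58 in salt, and 8.32, 8.38 and 8.02 in Pokkali control against 6.85, 7.57 and 5.88 in salt. LOC4352286 fell by 0.74 (SE 0.18, adjusted p = 0.0283) and LOC4325616 by 0.38 (SE 0.07, adjusted p = 0.00762), with all 8 salt arrays below the control means at these 3. LOC4352286 did not pass in 8 of 20 fits with 1 array left out (highest adjusted p 0.0751).

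Within single genotypes FL478 had 3 that passed (1.11%, against 0.268% of all), 2 higher (against 0.131%) and 1 lower (against 0.136%). IR63731 had 3, all higher, against 0.0804% of all and 0.042% higher, and Pokkali had 4, all higher, against 0.297% and 0.131%. With replicate number as a block, FL478 had 7 (2.59%, against 0.738% of all), IR63731 8 (2.96%, against 0.507%) and Pokkali 12 (4.44%, against 1.72%). With all 23 arrays FL478 had 5 (1.85%, against 0.96%), IR63731 2 (0.741%, against 0.0717%) and Pokkali 1 (0.37%, against 0.341%), so in Pokkali the share was near that of all. Without FL478 control replicate 2 or FL478 salt replicate 3, FL478 had 1, and without IR63731 control replicate 3, IR63731 had 1. Without Pokkali control replicate 1 or salt replicate 3, Pokkali had 2, and without its control replicate 3 or salt replicate 2, 1. The share of all is not given for these fits with 1 array left out. The 3 in FL478 and the 3 in IR63731 all lay among the probe sets at which that line stood on the IR29 side (143 and 129), and none among those on its Pokkali side (127 and 141); the difference between the sides was not tested.

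In FL478 LOC4338915 and OsAffx.2093.1.S1_at rose, the second by 2.58 (adjusted p = 0.0273), and neither passed with array weights or with only the arrays compared (highest adjusted p 0.316 and 0.554). Os.26063.1.S1_at fell by 1.52 (SE 0.22, adjusted p = 0.00788) and did not pass with only the arrays compared (adjusted p = 0.320) or without FL478 control replicate 1 (0.0740). It read 9.20 and 9.13 in FL478 control and 7.30 and 7.99 in FL478 salt, and its array left out of FL478 salt read 8.25. In IR63731 it read 9.05, 8.97 and 9.17 in control and 8.68, 8.63 and 9.22 in salt, and in Pokkali all 6 arrays lay between 4.80 and 5.17. Its changes were thus -0.22 in IR63731, 0.09 in Pokkali and -0.11 in IR29, and its fall in the mean of the 3 genotypes (-0.55, adjusted p = 0.0105) rested on FL478.

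In IR63731 the rise was shared by LOC4338915, OsAffx.2093.1.S1_at, by 2.68 (adjusted p = 0.00998), and OsAffx.20742.3.S1_x_at, by 1.47 (adjusted p = 0.0418). The last did not pass with all 23 arrays (adjusted p = 0.528, of a range over alternatives of 0.00744 to 0.528), nor in 15 of 20 fits with 1 array left out. In Pokkali LOC4338915 rose, as did the 2 probe sets Os.5930.1.S1_at and Os.5930.1.S1_x_at by 0.76 and 0.75 (adjusted p = 0.0197 and 0.0138), and LOC4342229 by 0.41 (adjusted p = 0.0498). With all 23 arrays the last 3 did not pass (adjusted p = 0.393, 0.380 and 0.588, each the highest over the alternatives, whose lowest were 0.00527, 0.00463 and 0.0261), and LOC4342229 did not pass in 18 of 20 fits with 1 array left out. In IR29 the same 4 arrays served the rule and the fit, whose 1 control array took its spread from the other groups, so that the 3 of the 270 that passed there (against 0.042% of all) and the median change of 0.08 are descriptions and nothing is read from them.

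**Figure D5:**
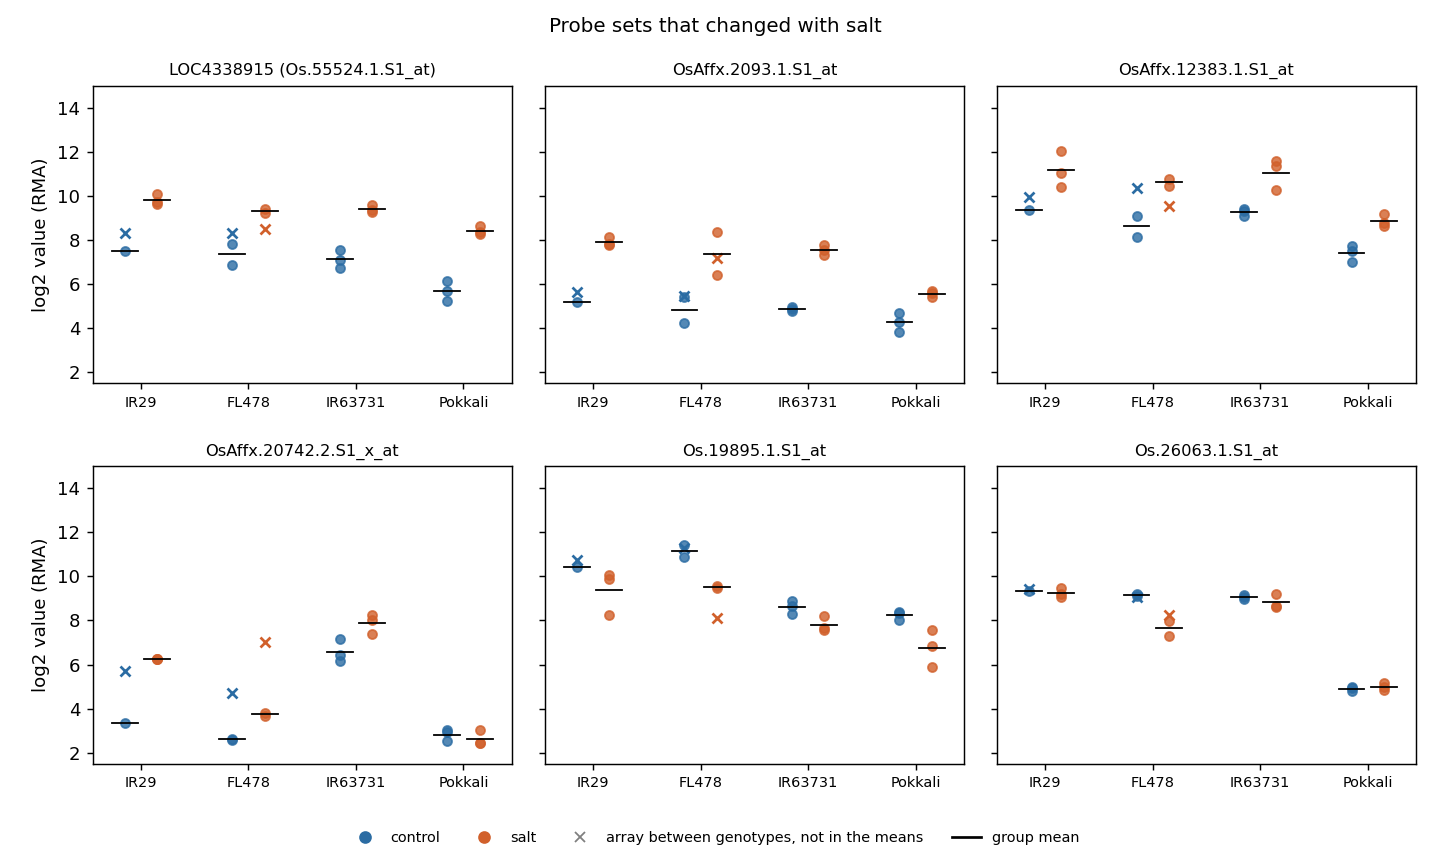
Level (log2, RMA) of 6 probe sets that passed for salt in the mean of FL478, IR63731 and Pokkali, by genotype. Points are arrays, blue for control and orange for salt, black bars are group means, and crosses are the 3 arrays between genotypes, which are not in the means. LOC4338915 rises in every genotype, and Os.26063.1.S1_at is lower under salt in FL478 with IR63731 and Pokkali changed by -0.22 and 0.09.

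No difference of salt effects between 2 genotypes passed in limma at any of the 270. Of all rice probe sets 0.00525% passed for FL478 minus Pokkali, 0% for IR63731 minus Pokkali and 0.00699% for FL478 minus IR63731. An unadjusted p under 0.05 was found at 26 (9.63%, against 4.95% of all), 15 (5.56%, against 3.91%) and 16 (5.93%, against 4.22%) in the same order. Os.26063.1.S1_at came nearest for FL478, with a difference from Pokkali of -1.61 (SE 0.28, adjusted p = 0.179) and from IR63731 of -1.30 (SE 0.28, adjusted p = 0.587). For IR63731 minus Pokkali it was OsAffx.20742.2.S1_x_at, with 1.48 (SE 0.34, adjusted p = 0.629). Without FL478 salt replicate 3, 1 probe set passed for FL478 minus Pokkali. A p over the threshold does not show that the responses were alike.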

How the data were processed

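The deposited values are log2 expression values, 1 column per array, for which the authors used RMA, per the submitters' processing notes; the sources used here give neither its version nor the genome build of the annotation. Per the labels' protocols, TRIzol and RNeasy columns were used for RNA, with DNase, and targets were biotin-labelled cRNA. RMA values of low probe sets are compressed, which understates differences there. Of 57381 probe sets, 123 AFFX and 64 reporter probe sets were left out.

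Values were fitted in limma 3.58.1 (R 4.3.3) as 8 group means over 20 arrays, two-sided, and p-values were adjusted by Benjamini-Hochberg over 57194 probe sets. Passing means an adjusted p under 0.05. The code was tested on simulated data. Genes were named from the array's annotation and RefSeq symbols. By rule, the named genes are those with a name besides a locus identifier, up to 10 by parental difference and the largest that passed in each comparison, with probe sets by ID for at most 3 per comparison; others were chosen after their values were seen. The members, lists and rule were chosen with earlier results of these data known.

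The same replicate numbers in control and salt correlated by 0.421, 0.197 and 0.287 in FL478 and 0.142, 0.296 and 0.252 in IR63731, so the replicate block is given beside these, although in FL478 only number 1 has both its arrays among the 20. In Pokkali (-0.07, -0.02 and 0.316) and IR29 (-0.179 and 0.119) the values were mixed, and number 3 of Pokkali lay within the range of FL478. What a number stands for is not labelled. Alternatives were all 23 arrays, the replicate block, array weights, eBayes with trend and robust, quantile normalization again, a filter at the median probe set, fits with only the arrays compared, leaving out _s_at and _x_at probe sets or each array, and other thresholds of the rule.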

Additional observations from a re-analysis of the deposited data

How the results depend on the processing

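The difference of FL478 and IR63731 kept its count within 1.5 times under every alternative, from 78 to 89 with 1 array left out. The 24 probe sets followed there passed in every fit that held them. OsPP2C12, read by an _s_at probe set, was not in the fit without _s_at and _x_at probe sets. These 24 were picked among those that passed for the largest differences or for a named gene, so they do not speak for the others. The sides also kept theirs: with 1 array left out FL478 was on the IR29 side at 133 to 144 and on the Pokkali side at 126 to 137, and IR63731 at 127 to 132 and 138 to 143. The rule gave 444 probe sets at a threshold of 1.5 log2 units, 115 at 3, 266 with control and salt weighted equally and 254 to 283 with 1 array left out.

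Salt counts were less stable, and the cause was not tested. The share of all rice probe sets that passed moved as well. With the replicate block it was 0.738% in FL478, 0.507% in IR63731, 1.72% in Pokkali and 7.73% in the mean of these 3. Without the block the shares were 0.268%, 0.0804%, 0.297% and 3.73%. With all 23 arrays they were 0.96%, 0.0717%, 0.341% and 5.63%, and 0.343% in IR29. With the block the shares of the 270 and of all rice probe sets both rose. With all 23 arrays they did not always move together. In Pokkali the 270 went from 1.48% to 0.37%, and in the mean of these 3 they stayed at 7.78%. For the other alternatives below no share of all is given, so it is not shown whether those shifts are particular to the 270. Salt in FL478 gave 5 with all 23 arrays, 7 with the replicate block, 14 with the block and all 23 arrays (added after seeing the data), 1 with array weights, 0 with only the arrays compared, and 1 to 4 with 1 array left out. Salt in IR63731 gave 8 with the block, 1 with only the arrays compared and 1 to 4 with 1 left out. Salt in Pokkali gave 1 with all 23 arrays, 12 with the block, 9 with array weights, 1 with only the arrays compared and 1 to 4 with 1 left out. Salt in IR29 gave 11 with all 23 arrays and 16 with the block added, where control replicate 1, not used by the rule, reads lower (median position 0.810) at probe sets chosen for being high in the other 4 arrays, 8 with array weights, 0 with only the arrays compared and 1 to 6 with 1 left out; it could not be fitted without its control replicate 2. The mean of FL478, IR63731 and Pokkali gave 47 with the block, 37 with the block and all 23 arrays, and 16 to 24 with 1 left out. The difference of salt effects of FL478 and Pokkali gave 1 with the block and all 23 arrays and 0 to 1 with 1 array left out; the other 2 differences gave 0 to 0. No result reversed. Groups of 2 or 3 arrays and, in Pokkali, readings near background limit what small changes could be seen.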
